A study of Mus musculus with 36 samples.

Results

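Sterol and fatty acid synthesis share their starting material, cytosolic acetyl-CoA, and the transcription factors that switch their genes on. The genes described here are 35 listed members of both routes, matched by gene symbol in every deposited table. Of these, 34 were found among the 20325 genes of the tables and passed the filter on low counts in every fit, and Hmgcs1 was not analysed here. They comprise 17 enzymes of the sterol arm, 9 enzymes of the fatty acid arm, 6 regulators of the SREBP pathway or of sterol transport and 2 sterol exporters. Sc4mol is the older symbol of Msmo1 and is printed as in the files.

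In mammalian cells, the SREBP proteins encoded by Srebf1 and Srebf2 are made as precursors in the endoplasmic reticulum membrane. When membrane sterol is low, the escort protein SCAP carries them to the Golgi, where proteases release the part that enters the nucleus, and when sterol is high the INSIG proteins hold SCAP back. SREBP2 acts mainly on the genes of cholesterol synthesis and SREBP1 mainly on those of fatty acid synthesis, while oxysterols activate the LXR receptors, which switch on the exporters Abca1 and Abcg1. Serum in a culture medium brings cholesterol to the cells.

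RNA was sequenced in 36 libraries in 18 groups of 2. All fibroblasts were E13.5 mouse embryonic fibroblasts (MEFs), which carried at Col1a1, on both alleles, a doxycycline-inducible cassette for Oct4, Klf4, Sox2 and c-Myc, and 1 copy of the reverse tetracycline transactivator at Rosa26. Doxycycline turned the 4 factors on, and SGC0946, which inhibits the histone methyltransferase DOT1L, was compared with its solvent DMSO. The timecourse held untreated MEFs, cells at day 2 of doxycycline with DMSO (day 2 control) or SGC0946, and cells at day 4 with DMSO (day 4 control) or with SGC0946 on days 0 to 2 (early window), days 2 to 4 (mid window) or days 0 to 4 (full window). In the sort, cells were separated by surface CDH1 after 3.5 days of doxycycline, and the CDH1-positive and the CDH1-negative cells were then kept in doxycycline with DMSO or SGC0946 until day 5.5. In the lentivirus experiment, cells carried an empty virus or a Cdh1 virus and were harvested as uninduced MEFs or after 2 days of doxycycline with DMSO or SGC0946. The last group was V6.5 embryonic stem cells (ESCs), freed of feeders 24 hours before harvest. MEFs grew in a medium with 10% serum, whereas ESCs and reprogramming cells grew on irradiated feeder MEFs in a medium with 15% serum and leukemia inhibitory factor. In each comparison of induced cells or ESCs with MEFs, the factors, the medium and the feeders therefore cannot be told apart. The counts do not separate the RNA of the feeders, and in bulk RNA fewer cells of a type and less RNA per cell cannot be told apart. Nothing in the labels says that both libraries of a group are from different cultures. The p-values then measure only the spread between these libraries, which may be technical.

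The libraries held 18534400 to 50866700 expected counts. Markers of the labelled cells were checked first. The 7 fibroblast genes summed to 21980.4 to 22134 CPM (counts scaled to library size) in the timecourse MEFs and to 155 to 177 CPM in the ESCs, and 7 pluripotency genes to 3476 to 3646 CPM in the ESCs and to at most 21.3 CPM in any other library. In the group of uninduced MEFs given the Cdh1 virus, the source field of replicate 2 names day 2 cells, while its title and treatment name uninduced MEFs. It was kept as MEFs: the 7 fibroblast genes summed to 28372 to 28727 CPM in both libraries of that group, to 26605 to 27748 CPM in MEFs with the empty virus and to 8812 to 8822 CPM in day 2 control cells with the Cdh1 virus. In the sort, 7 epithelial genes summed to 47.3 to 49.7 CPM in CDH1-negative and 143 to 145 CPM in CDH1-positive control cells. CPM values are scaled by TMM within each experiment, log2 fold changes are given with the standard error (SE) of the edgeR quasi-likelihood fit, and a gene was called at an adjusted p under 0.05. Levels are compared between genes only as TPM, which is scaled for transcript length and, unlike CPM here, is not scaled by TMM. Where libraries of 2 groups are said not to overlap, this only describes their values. With 2 libraries a group, many unchanged genes would not overlap either, and the share over all genes was not counted.

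In the untreated MEFs of the timecourse, the sterol arm made up more transcript than the fatty acid arm. Per length, its 17 genes summed to 2048 and 2119 TPM in the 2 libraries and the 9 fatty acid genes to 1523 and 1651 TPM. The desaturase Scd2 had the highest level of the 34 genes at 649 and 699 TPM, followed by Fdps, which makes farnesyl diphosphate, at 509 and 531 TPM. Sc4mol, a methylsterol oxidase, and Acly, which splits citrate into acetyl-CoA, came next at 242 and 247 and 230.1 and 249 TPM, and these libraries overlapped. Both exporters stood at the low end, Abca1 at 6.22 and 7.07 TPM and Abcg1 at 2.23 and 2.66 TPM.

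At day 2 of reprogramming, nearly the whole sterol route had fallen. The summed sterol arm dropped to 584 and 584 TPM and the fatty acid arm to 697 and 693 TPM, so that the ratio of sterol to fatty acid transcript went from 1.35 and 1.28 in the MEFs to 0.838 and 0.843. Of the 17 sterol genes, 16 were called lower and 0 higher than in MEFs, with a median log2 fold change of -1.64, against a median of 0.06 over the 14473 genes tested. All 9 fatty acid genes were called lower, with a median of -1.15. Over all genes tested, 34% were called lower and 40.4% higher. The median of the sterol arm lay 0.491 below that of the fatty acid arm, a difference that was described and not tested.

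The mevalonate steps build the isoprenoid unit from acetyl-CoA. Fdps stood at 333 and 333 CPM in the MEFs and at 66.2 and 66.3 CPM at day 2, with no overlap and a log2 fold change of -2.33 ± 0.03 (SE, adjusted p = 1.98e-39). Mvd, the decarboxylase that makes isopentenyl diphosphate, went from 76.8 and 74.9 to 17.8 and 16.8 CPM. Its log2 fold change was -2.13. The isomerase Idi1, the thiolase Acat2 and the kinases Mvk and Pmvk fell by less, with log2 fold changes of -1.64, -1.62, -1.52 and -1.26.

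Among the steps from squalene to cholesterol, Sc4mol had the largest change of the arm. It stood at 241 and 236 CPM in the MEFs and at 39.9 and 40.3 CPM at day 2, a log2 fold change of -2.57 ± 0.04 (SE, adjusted p = 7.01e-39). Lss, which folds squalene epoxide into lanosterol, went from 151 and 150.4 to 30.2 and 30.2 CPM (-2.32 ± 0.04 SE, adjusted p = 2.56e-36). Cyp51, the lanosterol demethylase, went from 346 and 360.5 to 71.2 and 74.3 CPM (-2.28 ± 0.04 SE, adjusted p = 5.41e-38). In none of these genes, which were detailed for their small p, did the libraries of MEFs and day 2 overlap. Nsdhl, a sterol dehydrogenase, and Hsd17b7, a ketosteroid reductase, changed by -2.18 and -1.88 on the log2 scale. Sqle, the squalene epoxidase, Sc5d, a sterol desaturase, and Fdft1, the squalene synthase, changed by -1.69, -1.54 and -1.47. The reductases Tm7sf2 and Dhcr7 changed by -1.35 and -1.25. Ebp, the sterol isomerase, was the exception at 36.1 and 32.5 CPM in MEFs and 35.6 and 35.8 CPM at day 2, a log2 fold change of 0.06 ± 0.05 (SE, adjusted p = 0.344), which was not called.

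In the fatty acid arm, Acss2 and the 4 desaturases had the largest changes. Acss2, which makes acetyl-CoA from acetate, stood at 23.8 and 24.4 CPM in MEFs and 7.64 and 8.36 CPM at day 2, a log2 fold change of -1.59. Scd2 went from 1972 and 2045 to 688 and 682 CPM (-1.55 ± 0.03 SE, adjusted p = 5.17e-35). The desaturases Fads2, Fads1 and Scd1 changed by -1.41, -1.33 and -1.15. The enzymes that build the carbon chain moved less. Acly and the fatty acid synthase Fasn changed by -0.89 and -0.88, the elongase Elovl6 by -0.66, and the acetyl-CoA carboxylase Acaca, at 163 and 186 CPM against 157 and 156 CPM, by -0.16. The call of Acaca was lost by limma, with total counts and without MEF replicate 2 (adjusted p = 0.0987 to 0.374). The exons of Acss2 share 13 of 3818 bases with Gss on the other strand, and those of Cyp51 166 of 3931 with Akap9. The split of reads between Scd1, Scd2 and their near-identical paralogs, and between Acat2 and Acat3, rests on the authors' counting model and is uncertain.

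The regulators fell as well, with Scap as the exception. Insig1, whose protein retains SCAP, stood at 212 and 211 CPM in the MEFs and 34.9 and 33.8 CPM at day 2, a log2 fold change of -2.62 ± 0.04 (SE, adjusted p = 6.72e-38). Srebf2 went from 291 and 285 to 154 and 159 CPM (-0.88), and Srebf1 and Insig2 changed by -0.78 and -0.83. Stard4, a cytosolic sterol carrier, changed by -1.25. Scap stood at 98.2 and 103 against 95.5 and 97.5 CPM and was not called (adjusted p = 0.229). The 2 exporters moved in opposite directions. Abca1 rose from 35.8 and 39.1 to 171 and 172 CPM, a log2 fold change of 2.20 ± 0.04 (SE, adjusted p = 1.40e-36), while Abcg1 fell from 7.25 and 8.31 to 0.597 and 0.949 CPM (-3.31). Among 46 tested of 48 other listed genes of lipid synthesis, uptake, storage and oxidation, 20 were called lower and 14 higher, with a median of -0.07. Those with the smallest p were Aacs, which feeds ketone bodies into lipid synthesis, at -1.34, and Npc1, which exports cholesterol from lysosomes, at -1.27. The 7 fibroblast markers summed to 21980.4 to 22134 CPM in MEFs and 6326 to 6554 CPM at day 2, with all 7 called lower and a median log2 fold change of -1.75. The 7 proliferation markers, all called higher, summed to 1730.2 to 1811 and 2711 to 2785 CPM, and 11 macrophage markers to 295 to 299.8 and 103 to 104 CPM. Their part in these changes was not tested.

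**Figure D1:**
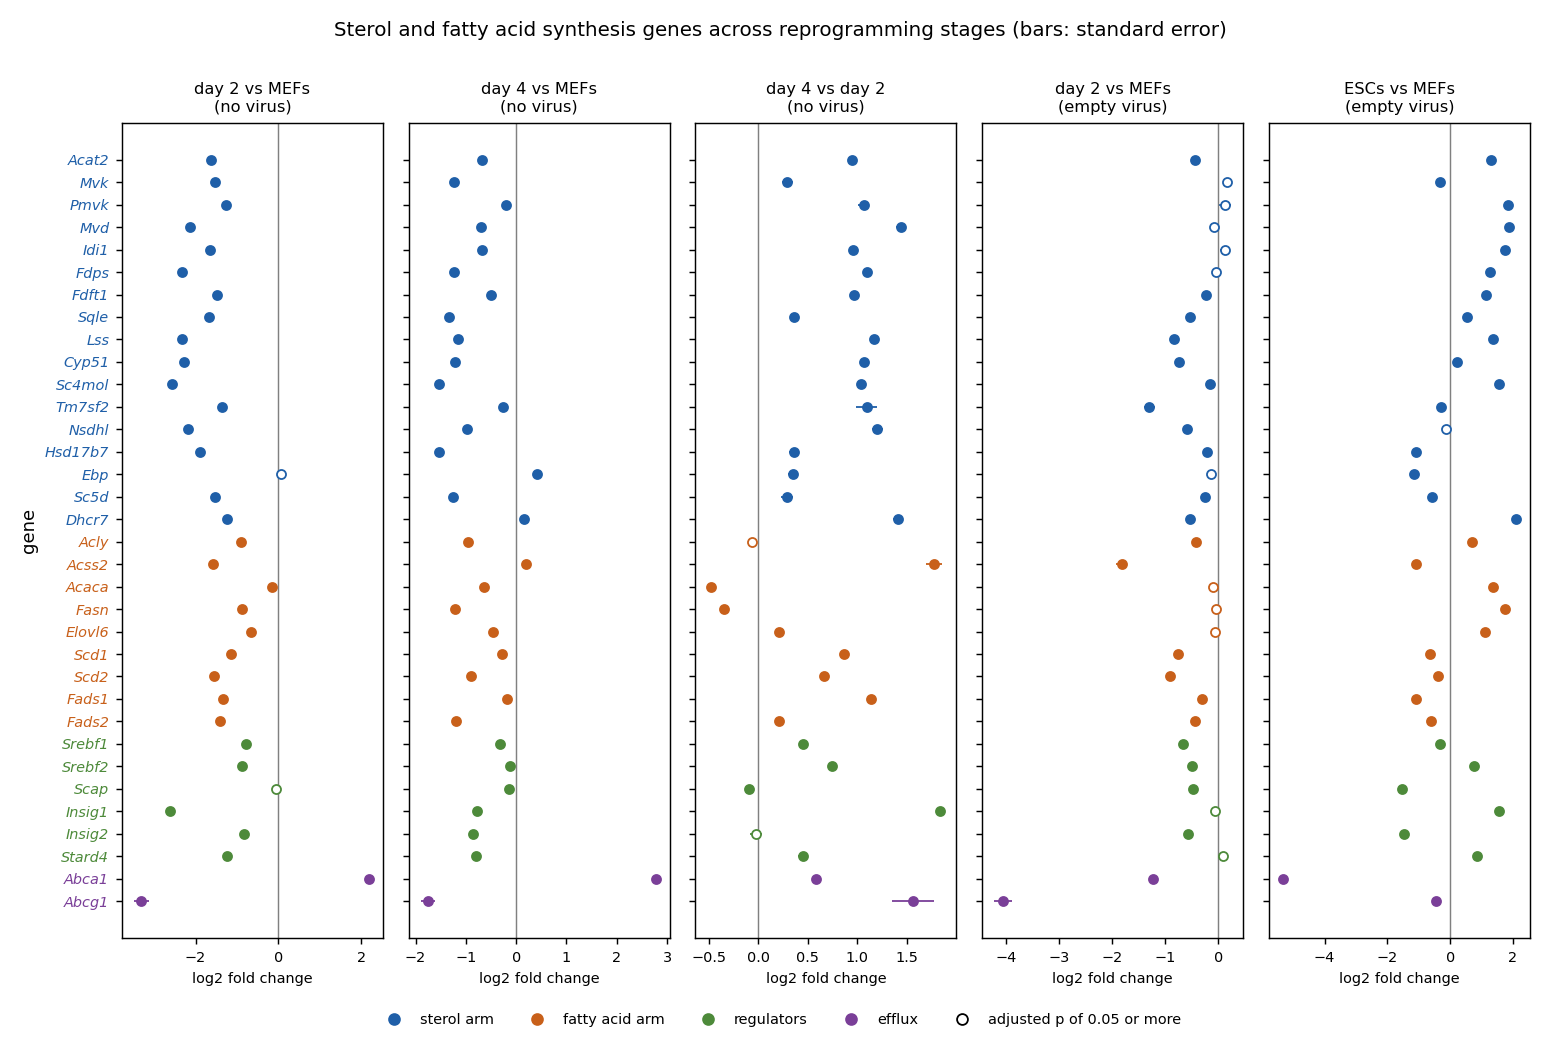
Log2 fold changes of the 34 genes (rows) in 5 comparisons (panels, each with its own x axis, log2 scale), with the standard error as a bar. Blue marks the sterol arm, orange the fatty acid arm, green the regulators and purple the exporters, and open points were not called. In the first panel 16 of 17 sterol genes lie left of 0 as called points, and in the last panel 11 of 17 lie right of 0.

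The promoters of the genes were searched for 4 short motifs on both strands in RefSeq windows of 300 bases (250 before and 50 after the start, build GRCm38.p6, whereas the counts were made on mm9). Windows were found for 26 of the 34 genes, and not for Fdps, Fdft1, Sqle, Stard4, Abcg1, Scd1, Scd2 and Fads1. The motifs were CCAAT (the NF-Y box), GGGCGG (a GC box), CACGTG (an E-box) and TCACNCCAC (a sterol regulatory element core). CCAAT or its reverse complement lay in 76.5% of the 17 sterol arm windows and in 50% of the 6 fatty acid arm windows, against 37.4% of the 32851 windows of the table. By gene, 13 of 14 sterol genes with a window held it in at least 1 window, all but Acat2. Dhcr7 and Pmvk have more than 1 window and did not hold it in each. The share by gene over all genes was not counted. The GC box lay in 82.4% of sterol arm windows, 50% of fatty acid arm windows and 35.7% of all windows, and the E-box in 17.6%, 0% and 7.15%. TCACNCCAC was in 0% of the windows of these genes and in 1.24% of all windows, which says only that these exact letters are absent there. Windows that hold a GC box held CCAAT in 35.9% of cases, and in none of the windows of these genes did CCAAT overlap another of the motifs. A match is a description of the letters and not a binding site. The number of CCAAT boxes was not tested against the fall at day 2. Mvk held 5 (-1.52), Nsdhl 4 (-2.18), Sc4mol 3 (-2.57), Hsd17b7 3 (-1.88) and Lss 1 (-2.32). Ebp, which did not fall, held 2 (0.06). Shown are Sc4mol (chr8:64733529-64733828, minus strand), with the largest fall of the sterol arm and 3 boxes, Lss (chr10:76531355-76531654, plus strand), Acss2 (chr2:155517793-155518092, plus strand), with the largest fall of the fatty acid arm, and Srebf2 (chr15:82147019-82147318, plus strand), 5′ to 3′ in the direction of the gene with the box on either strand in capitals.
Sc4mol: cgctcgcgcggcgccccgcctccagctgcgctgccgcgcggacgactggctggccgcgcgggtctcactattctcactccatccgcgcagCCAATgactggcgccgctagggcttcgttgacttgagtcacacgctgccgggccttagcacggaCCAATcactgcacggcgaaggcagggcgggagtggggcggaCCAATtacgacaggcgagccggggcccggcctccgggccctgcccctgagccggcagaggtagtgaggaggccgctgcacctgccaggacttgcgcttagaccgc
Lss: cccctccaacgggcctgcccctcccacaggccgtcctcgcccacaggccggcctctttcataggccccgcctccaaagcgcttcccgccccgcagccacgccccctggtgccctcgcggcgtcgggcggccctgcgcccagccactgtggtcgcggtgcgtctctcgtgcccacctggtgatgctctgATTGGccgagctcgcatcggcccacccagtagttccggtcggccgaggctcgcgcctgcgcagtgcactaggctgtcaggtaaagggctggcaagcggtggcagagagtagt
Acss2: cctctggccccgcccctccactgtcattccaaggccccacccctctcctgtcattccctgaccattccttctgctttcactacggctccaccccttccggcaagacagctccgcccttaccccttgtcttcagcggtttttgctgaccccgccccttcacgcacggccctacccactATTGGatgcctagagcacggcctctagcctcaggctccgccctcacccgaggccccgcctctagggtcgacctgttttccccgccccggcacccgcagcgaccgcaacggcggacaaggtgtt
Srebf2: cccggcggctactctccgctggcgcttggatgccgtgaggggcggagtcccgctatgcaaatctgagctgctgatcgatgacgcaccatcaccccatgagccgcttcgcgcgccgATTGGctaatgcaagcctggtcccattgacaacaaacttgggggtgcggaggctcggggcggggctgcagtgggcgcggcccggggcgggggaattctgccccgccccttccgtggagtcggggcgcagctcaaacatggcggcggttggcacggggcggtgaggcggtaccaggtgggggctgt

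From day 2 to day 4 the sterol genes rose together, while the fatty acid genes split. All 17 sterol genes were called higher at day 4 than at day 2, with a median log2 fold change of 1.04 (range 0.29 to 1.44), where 38.1% of all genes tested were called higher and 39.7% lower. Of the 9 fatty acid genes, 6 were called higher and 2 lower, with a median of 0.21. The summed sterol arm reached 1133 and 1143 TPM and the fatty acid arm 969 and 979.9 TPM, which put the ratio at 1.17 and 1.17. The largest sterol gains were those of Mvd at 47.2 and 46.9 CPM (1.44) and Dhcr7 at 56.4 and 56.5 CPM (1.41 ± 0.05 SE, adjusted p = 4.62e-26). The smallest were those of Mvk and Sc5d, 0.29 and 0.29.

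Acss2 had the largest gain of the fatty acid arm, from 7.64 and 8.36 CPM at day 2 to 28.4 and 26.4 CPM at day 4 (1.78 ± 0.08 SE, adjusted p = 5.19e-23). Fads1, Scd1 and Scd2 rose by 1.14, 0.86 and 0.66 on the log2 scale, and Elovl6 and Fads2 by 0.21 and 0.21. Acaca and Fasn fell further. Acaca went from 157 and 156 to 111 and 114 CPM (-0.47 ± 0.04 SE, adjusted p = 4.20e-13), and Fasn from 399 and 403 to 309 and 323 CPM (-0.35 ± 0.03 SE, adjusted p = 1.50e-12). Acly stood at 313 and 307 and 291 and 301 CPM and was not called (adjusted p = 0.0635). Among the regulators, Insig1 rose most, to 121 and 124 CPM (1.84 ± 0.04 SE, adjusted p = 7.24e-32), and Srebf2, Srebf1 and Stard4 rose by 0.75, 0.45 and 0.45. Scap was called lower (-0.09), but not by DESeq2 or limma (adjusted p = 0.17 and 0.512) nor without any 1 of the 4 libraries (0.0672 to 0.253), and its direction turned when libraries were scaled by total counts without TMM (0.02). Insig2 was not called (-0.02). Abca1 and Abcg1 rose by 0.58 and 1.56. Between these days the 7 proliferation markers, all called lower, went from 2711 to 2785 to 1339 to 1352 CPM. The 11 macrophage markers, all called higher, went from 103 to 104 to 296 to 303 CPM, and the epithelial markers, with 6 of 6 tested called higher, from 6.92 to 7.22 to 16.9 to 17.6 CPM. Their part was not tested.

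Against MEFs, day 4 cells still had lower levels of most members. In the sterol arm 15 genes were called lower and 2 higher (median -0.98), and in the fatty acid arm 8 lower and 1 higher (median -0.63), where 41% of all genes were called lower and 41.2% higher. All 6 regulators were called lower by edgeR and 4 by limma, which did not call Srebf2 and Scap (adjusted p = 0.268 and 0.319). The genes above their MEF level were Ebp at 46.1 and 45.1 CPM against 36.1 and 32.5 CPM (0.41 ± 0.05 SE, adjusted p = 1.72e-09), Dhcr7 at 56.4 and 56.5 against 51 and 49.9 CPM (0.16 ± 0.05 SE, adjusted p = 0.00133) and Acss2 at 28.4 and 26.4 against 23.8 and 24.4 CPM (0.19 ± 0.07 SE, adjusted p = 0.0115). The call of Acss2 was lost without MEF replicate 1 (adjusted p = 0.0504) or without day 4 control replicate 1 (adjusted p = 0.147). The genes farthest below it were Sc4mol (-1.53), Hsd17b7 (-1.52), Sqle (-1.33) and Fasn (-1.22). Set against the log2 fall by day 2, the 16 sterol genes had regained a median of 52.8% by day 4, with a range of 19.0% for Sc5d to 113% for Dhcr7, and the 9 fatty acid genes a median of 31.3%, from -301% for Acaca to 112% for Acss2. Day 2 and day 4 were compared with the same MEF libraries, so these shares are a description. Scaling by total counts alone shifted the median of all genes in the day 4 comparison from 0.01 to 0.23, and under it Srebf2 (0.09), Scap (0.08), Fads1 (0.04) and Pmvk (0.03) changed sign. Srebf2 was then called higher (adjusted p = 0.0106), and the other 3 genes were not called. Abca1 rose to 253 and 259.5 CPM, 2.78 ± 0.04 (SE, adjusted p = 1.46e-40) against MEFs, and the macrophage markers, which had been lower at day 2, summed to 296 to 303 CPM at day 4. The fibroblast markers summed to 7187 to 7214 CPM and the proliferation markers to 1339 to 1352 CPM, with 7 of 7 and 5 of 7 called lower than in MEFs. Their part was not tested. Of the other pathway genes, 24 were called lower and 18 higher. Acacb, the mitochondrial acetyl-CoA carboxylase, had the smallest p of those that were higher (2.22).

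**Figure D2:**
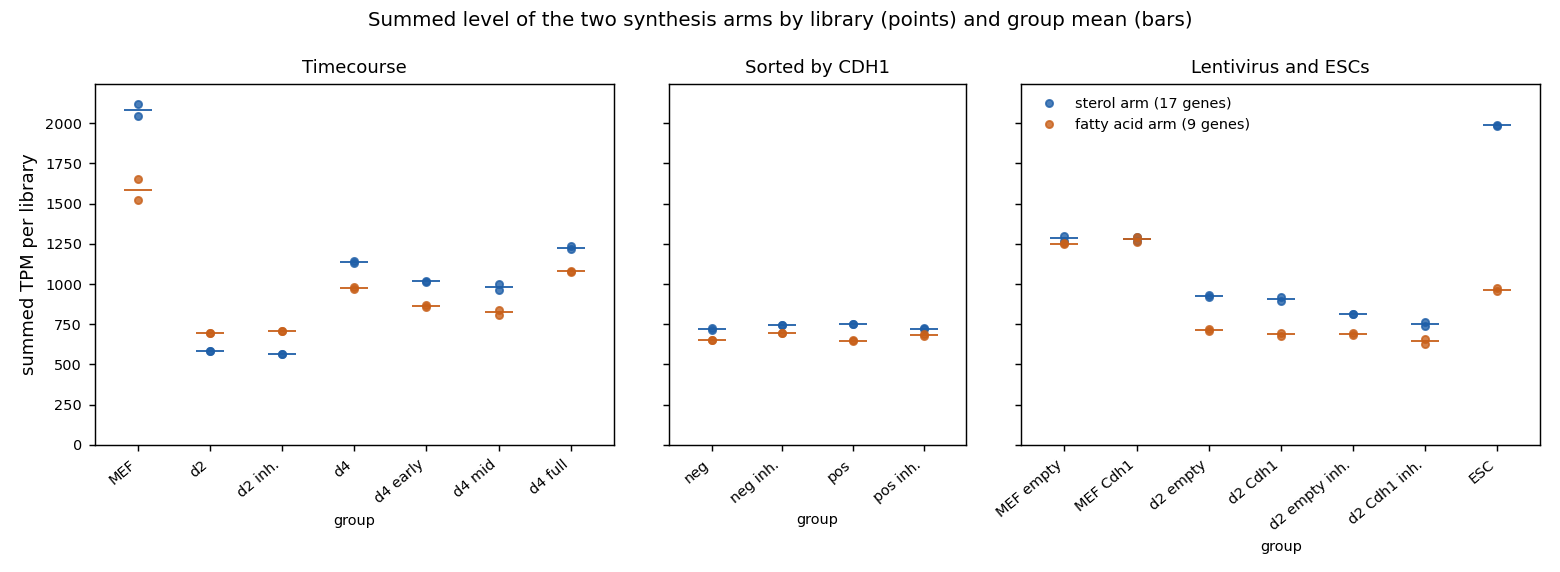
Summed TPM (y axis, from 0) of the 17 sterol arm genes (blue) and the 9 fatty acid arm genes (orange) in each library (points) with the group mean (bars), by group (x axis) in the timecourse, the sort and the lentivirus experiment with the ESCs (inh., SGC0946). The sterol sum lay below the fatty acid sum in the 4 day 2 libraries of the timecourse, at 584 against 693 to 697 TPM in the control, and in 1 library of MEFs with the Cdh1 virus.

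In the lentivirus experiment, the step from MEFs to day 2 was smaller for the sterol arm. With the empty virus, 11 sterol genes were called lower and 0 higher (median -0.23), and 6 fatty acid genes lower and 0 higher (median -0.42), where 32.7% of the 15044 genes tested were called lower and 33.4% higher. With the Cdh1 virus, 13 sterol genes and 9 fatty acid genes were called lower and 0 higher (medians -0.33 and -0.47), with 32.6% of all genes lower and 33.4% higher. The summed sterol arm stood at 1299 and 1269.9 TPM in MEFs with the empty virus and 932 and 917 TPM at day 2, and the fatty acid arm at 1248 and 1255 and 707 and 718 TPM. The ratio of sterol to fatty acid transcript therefore went from 1.04 and 1.01 to 1.32 and 1.28, the opposite direction to that in the timecourse. Tm7sf2 had the largest change of the sterol arm with either virus, from 22.1 and 20.4 to 8.88 and 8.32 CPM with the empty virus (-1.31 ± 0.10 SE, adjusted p = 5.12e-11). Fdps, whose log2 fold change was -2.33 in the timecourse, stood at 137 and 125 and 128 and 124 CPM and was not called (-0.05, adjusted p = 0.444). Lss and Cyp51 fell in both experiments, here with changes of -0.84 and -0.74. Acss2 had the largest change of the fatty acid arm again, from 29.4 and 29.7 to 8.56 and 8.1 CPM (-1.83 ± 0.10 SE, adjusted p = 9.96e-14), and the changes of Scd2 and Scd1 were -0.91 and -0.76. Fasn, Acaca and Elovl6 were not called with the empty virus (-0.05, -0.11 and -0.07) and were called lower with the Cdh1 virus (-0.13, -0.18 and -0.17). With the Cdh1 virus Fasn was not called without any 1 of the 4 libraries (adjusted p = 0.0744 to 0.218), Acaca without MEF replicate 1 (0.0649) and Elovl6 without MEF replicate 1 or day 2 control replicate 2 (0.106 and 0.166). Srebf1, Insig2, Srebf2 and Scap fell with the empty virus, with changes of -0.67, -0.58, -0.51 and -0.49, and Stard4 was not called (0.09).

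Insig1 and Abca1 had different calls in the 2 experiments. Insig1 stood at 81.9 and 82 CPM in MEFs with the empty virus and 78.4 and 77.9 CPM at day 2 and was not called (-0.07, adjusted p = 0.304), whereas with the Cdh1 virus its change was -0.41 and in the timecourse -2.62, both called. Abca1 fell from 216 and 225 to 92.8 and 94.4 CPM (-1.24 ± 0.06 SE, adjusted p = 5.31e-15) with the empty virus, its change with the Cdh1 virus was -1.18, and in the timecourse it rose. Abcg1 fell in both, here from 17 and 17.4 to 1.2 and 0.864 CPM (-4.06 ± 0.17 SE, adjusted p = 4.75e-16). Between the timecourse and the empty-virus experiment, which share no library, 28 of 34 genes had the same sign of change, 21 were called in the same direction and 1, Abca1, in opposite directions, with a Pearson r of 0.189 across the 34 genes. Over the 14159 genes tested in both, 68.7% had the same sign and r was 0.52. Of these genes, 6219 were called in the same direction and 1602 in opposite directions. Genes are not independent replicates, and the difference between the experiments was not tested. Other genes moved as well. Aacs, which was called lower at day 2 in the timecourse, was called higher here with the empty and the Cdh1 virus (0.42 and 0.23). Npc1 was lower in the timecourse and with both viruses, here by -1.29 and -1.21. Fibroblast markers summed to 26605 to 27748 CPM in the MEFs with the empty virus and 9022 to 9095 CPM at day 2, with 7 of 7 called lower. Proliferation markers summed to 279 to 292 CPM in these MEFs and 1162 to 1165 CPM at day 2, and macrophage markers to 1432 to 1539 and 289 to 303 CPM. Their part in the difference between the experiments was not tested. Of the 34 genes, 0 were called for a difference of the day 2 change between the viruses by edgeR, with 6 of 34 at an unadjusted p under 0.05 and 0 by DESeq2 or limma, where 0.166% of all genes were called lower and 0.0133% higher. For this difference, 1417 of the 15044 genes tested were at an unadjusted p under 0.05.

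**Figure D3:**
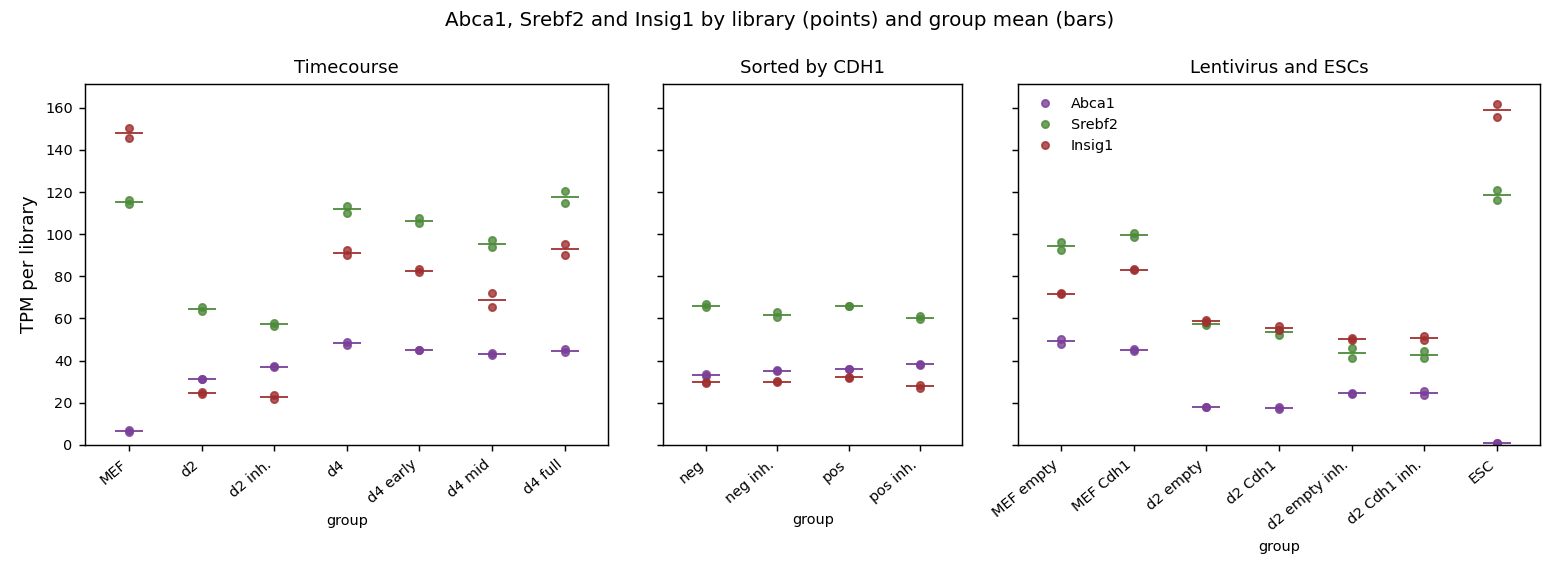
TPM (y axis, from 0) of Abca1 (purple), Srebf2 (green) and Insig1 (red) in each library (points) with the group mean (bars), by group (x axis). Abca1 stood at 6.22 and 7.07 TPM in the timecourse MEFs and was higher in each later timecourse group, whereas in the lentivirus experiment it was highest in the MEFs.

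SGC0946 lowered a small set of sterol genes at day 2 in each of 3 pairs of groups that share no library: cells without virus, with the empty virus and with the Cdh1 virus. Without virus, 6 of 17 sterol genes were called lower and 0 higher (median -0.08), and 1 fatty acid gene was called lower and 1 higher (median -0.02), where 9.11% of all genes were called lower and 8.73% higher. With the empty virus, 6 sterol genes and 2 fatty acid genes were called lower and 0 higher (medians -0.22 and -0.11), against 3.52% of all genes lower and 3.22% higher. With the Cdh1 virus the counts were 6 and 1 (medians -0.22 and -0.10), against 2.23% lower and 2.82% higher. The genes tested with virus include some kept by the filter through the ESCs, with few reads in day 2 cells. The shares over all genes are therefore not like for like with those of the members. Of the 34 genes, 22 had a negative change in all 3 pairs and 5 a positive one. The matching shares over all genes were not counted for the 3 pairs together. For 2 pairs at a time, calls in the same direction were counted. Without virus and with the empty virus they numbered 7 of 34 members and 393 of 14159 genes. Without virus and with the Cdh1 virus they numbered 7 of 34 and 300 of 14159. Between the viruses they numbered 6 of 34 and 324 of 15044. The genes called lower in all 3 were Fdps, Fdft1, Dhcr7 and Srebf2, and the 1 gene called higher in all 3 was Abca1. Fdft1 and Abca1 kept these calls without any 1 of the libraries and by DESeq2 and limma. Fdps was not called in cells without virus by limma (adjusted p = 0.21) or without any 1 of the 4 libraries (0.149 to 0.181), and Dhcr7 with the Cdh1 virus was not called without control replicate 1, control replicate 2 or inhibitor replicate 2 (0.0854 to 0.14). The epithelial markers summed to 6.92 to 7.22 CPM in control and 17.2 to 17.3 CPM in SGC0946 libraries without virus, with 5 of 6 tested called higher. No such rise was seen in both libraries with a virus. With the empty virus the epithelial sums were 12.96 to 13.2 CPM in control and 12.71 to 16.44 CPM in SGC0946 libraries. With the Cdh1 virus, which itself adds Cdh1, they were 126.1 to 129.2 and 120.5 to 121.7 CPM. The macrophage markers summed to 289 to 303 CPM in control and 244 to 253 CPM in SGC0946 libraries with the empty virus. Without virus they summed to 103 to 104 and 98.6 to 98.9 CPM, and with the Cdh1 virus to 123 to 125 and 124 to 131 CPM. The part of these markers was not tested.

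Dhcr7 stood at 20.7 and 21.8 CPM in day 2 control cells and 17.7 and 16.6 CPM with SGC0946 (-0.31 ± 0.06 SE, adjusted p = 7.38e-05). With the empty virus it stood at 21.5 and 23.2 against 14.9 and 16.4 CPM (-0.51 ± 0.08 SE, adjusted p = 5.43e-04), and with the Cdh1 virus at 21.4 and 21.3 against 17.6 and 16.2 CPM (-0.33). In each pair both inhibitor libraries lay below both control libraries. Fdft1 went from 65.3 and 63.5 to 56.1 and 53.5 CPM without virus (-0.23 ± 0.04 SE, adjusted p = 4.59e-05), and its changes with the empty and the Cdh1 virus were -0.35 ± 0.06 and -0.38 ± 0.06. Some of its exons, 774 of 3698 bases, lie over Ctsb on the other strand, from which reads cannot be told apart where strand was not used. The changes of Fdps were -0.10 ± 0.04, -0.41 ± 0.06 and -0.45 ± 0.06. Srebf2 went from 154 and 159 to 134 and 138 CPM (-0.21 ± 0.04 SE, adjusted p = 3.48e-05) without virus, from 133 and 132 to 91.8 and 102 CPM with the empty virus (-0.45 ± 0.06 SE, adjusted p = 7.78e-05) and from 118 and 125 to 95 and 101 CPM with the Cdh1 virus (-0.31 ± 0.06 SE, adjusted p = 0.00389). Its libraries did not overlap in any of the pairs, and the call with the Cdh1 virus was lost without control replicate 2 (adjusted p = 0.109). Abca1 moved the other way in each pair, from 171 and 172 to 197 and 201 CPM (0.21 ± 0.03 SE, adjusted p = 7.17e-06), from 92.8 and 94.4 to 121 and 124 CPM (0.38 ± 0.06 SE, adjusted p = 2.63e-04) and from 92.3 and 88.9 to 124 and 130.1 CPM (0.49 ± 0.06 SE, adjusted p = 3.05e-05).

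Other sterol genes were called in some of the pairs. Nsdhl and Cyp51 were called lower without virus (-0.18 and -0.12) and with the Cdh1 virus (-0.36 and -0.22), Idi1 without virus (-0.16 ± 0.04 SE, adjusted p = 0.00196), Acat2, Mvk and Mvd with the empty virus (-0.30, -0.38 and -0.36) and Sqle with the Cdh1 virus (-0.26). In the fatty acid arm, Elovl6 was called lower without virus (-0.22 ± 0.04 SE, adjusted p = 7.66e-05) and with the empty virus (-0.27), and Fads1 with each virus (-0.22 and -0.24). Fads2 was called higher without virus alone (0.12). Insig1 was called lower without virus (-0.16) and with the empty virus (-0.29). Tm7sf2, Scd1, Insig2 and Abcg1 had positive changes in each pair, none of them called. Several of these calls rested on single libraries. Fads2 was called neither by DESeq2 (adjusted p = 0.0814) nor without any 1 of the 4 libraries (0.109 to 0.188). Nsdhl without virus was called neither by DESeq2 or limma (0.0792 and 0.176) nor without control replicate 1, inhibitor replicate 1 or inhibitor replicate 2 (0.096 to 0.37). Cyp51 without virus was not called without control replicate 2 or inhibitor replicate 2 (adjusted p = 0.291 and 0.289), Idi1 without inhibitor replicate 2 (0.0605), and Insig1 without control replicate 1 or inhibitor replicate 1 (0.143 and 0.268). With the empty virus Mvk was not called without control replicate 2 (0.055), nor Elovl6 without control replicate 2 or inhibitor replicate 1 (0.0998 and 0.101), nor Mvd without control replicate 1 or inhibitor replicate 1 (0.0655 and 0.0606). Acat2 and Fads1 with the empty virus were called neither by limma nor without control replicate 1, control replicate 2 or inhibitor replicate 1 (0.0595 to 0.241). With the Cdh1 virus Nsdhl and Sqle were not called without control replicate 2 (both 0.144), Cyp51 not without either control library or inhibitor replicate 1 (0.0934 to 0.147), and Fads1 not without either control library or inhibitor replicate 2 (0.0606 to 0.127). Without virus the sterol count fell from 6 to 2 without inhibitor replicate 2, and the fatty acid count from 2 to 1 without any of the 4 libraries. With the empty virus the fatty acid count fell from 2 to 1 without control replicate 1 and to 0 without control replicate 2 or inhibitor replicate 1. With the Cdh1 virus the sterol count fell from 6 to 2 without control replicate 2, and the fatty acid count from 1 to 0 without either control library or inhibitor replicate 2. The sterol count without virus was 2 by limma on log2(TPM + 1).

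Across the 34 genes, the change with SGC0946 in cells without virus had a Pearson r of 0.779 with that in cells with the empty virus and 0.786 with that in cells with the Cdh1 virus, and 27 and 28 of the 34 genes had the same sign. Over all 14159 genes tested in both experiments, r was 0.153 and 0.214, and 61% and 60.8% had the same sign. Within the arms r was lower than over the 34 genes, 0.655 and 0.682 for sterol and 0.572 and 0.45 for fatty acid genes. Of the sterol genes 76.5% and 82.4% had the same sign, and of the fatty acid genes 66.7% and 66.7%. Between the viruses, which are of 1 experiment, r was 0.873 across the 34 genes and 0.0653 over all genes. The filter of this experiment also counted the ESCs, so all genes here include some with few reads in day 2 cells, whose changes are noisy. The r over all genes is therefore not like for like with that of the 34 genes. These correlations are across genes, which are not independent replicates, and are given as a description. A difference of the SGC0946 effect between the viruses was called in 0 members by edgeR, with 1 of 34 at an unadjusted p under 0.05 and 0 by DESeq2 or limma, and 0% of all genes were called in either direction. Of the 15044 genes tested, 1126 were at an unadjusted p under 0.05 for it. The other pathway genes called in these pairs numbered 10 of 46, 4 of 47 and 3 of 47. Ch25h, which makes an oxysterol, was called higher with each virus (0.59 and 0.66), and Lpin1, a phosphatidate phosphatase, lower without virus (-0.28).

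**Figure D4:**
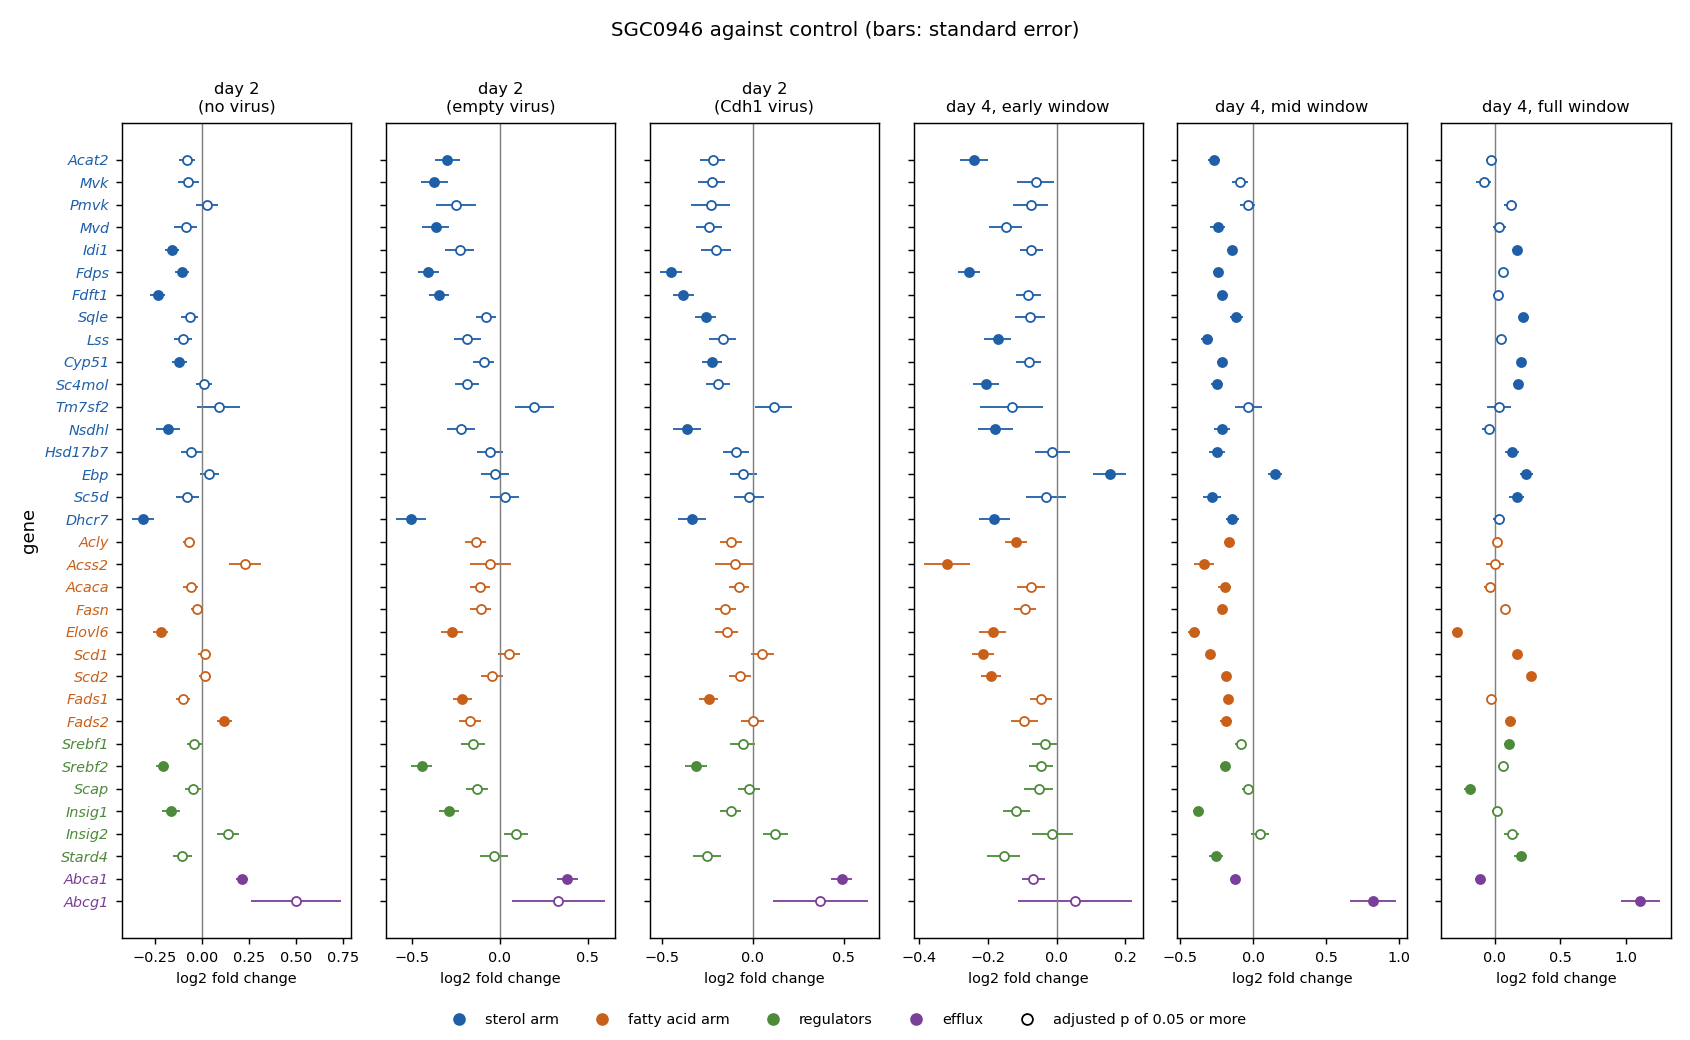
Log2 fold changes of SGC0946 against control (x axes, log2 scale, each panel with its own range) for the 34 genes (rows) with the standard error as a bar, in the 3 day 2 pairs and for the 3 inhibitor windows at day 4. Colours mark the lists and open points were not called. In the mid window all 9 fatty acid genes and 13 of 17 sterol genes lie left of 0 as called points, and in the full window 7 sterol genes lie right of 0 as called points.

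At day 4 the change with SGC0946 was read in 3 windows, which share their control libraries. In the mid window, with SGC0946 on days 2 to 4, both arms were lower than control: 14 of 17 sterol genes were called, 13 lower and 1 higher (median -0.21), and all 9 fatty acid genes were called lower (median -0.20), where 27.4% of the 14473 genes tested were called, 1948 lower and 2020 higher. In the early window, with SGC0946 on days 0 to 2 and then withdrawn, 6 sterol genes were called lower and 1 higher (median -0.08) and 5 fatty acid genes lower (median -0.12), where 2.45% of all genes were called lower and 3.19% higher. In the full window, 7 sterol genes were called higher and 0 lower (median 0.06), and 3 fatty acid genes higher and 1 lower (median 0.02), where 19% of all genes were called higher and 15.8% lower. The summed sterol arm stood at 1133 and 1143 TPM in the control, 1015 and 1022 TPM in the early, 997 and 963 TPM in the mid and 1219 and 1234 TPM in the full window. The fatty acid arm followed with 969 and 979.9, 856 and 870.2, 840.1 and 810.1 and 1077 and 1082 TPM, so that the ratio of the arms stayed between 1.13 and 1.19 in the 8 libraries.

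In the mid window, Lss had the smallest p of the sterol arm at 54.4 and 54.6 CPM against 68.6 and 67.4 CPM in the control (-0.32 ± 0.04 SE, adjusted p = 1.01e-07). Fdps stood at 121 and 119.6 against 140.5 and 144 CPM (-0.24 ± 0.03 SE, adjusted p = 3.62e-07), and Sc4mol and Acat2 changed by -0.25 and -0.27. In the fatty acid arm, Elovl6 stood at 98.9 and 103 against 134 and 134 CPM (-0.41 ± 0.04 SE, adjusted p = 1.80e-10) and Scd1 at 210.2 and 214 against 258 and 263 CPM (-0.29 ± 0.03 SE, adjusted p = 1.70e-09). Neither gene's libraries overlapped. Acss2, Fasn and Acaca changed by -0.34, -0.21 and -0.20, and Acly, Scd2, Fads1 and Fads2 by -0.17, -0.18, -0.17 and -0.18. The mid libraries were the shallowest of the timecourse, at 32883700 and 35800000 expected counts. They also differed most from each other, with a chi-square of counts per degree of freedom of 11.75. It was 7.687 in MEFs and 1.92 to 3.812 in the other timecourse groups. The fit shares its dispersion over the groups, so p-values of comparisons with the mid window may understate this spread. Insig1 was lowered to 98.2 and 90.8 CPM from 121 and 124 CPM (-0.38 ± 0.04 SE, adjusted p = 9.07e-10), and Stard4 and Srebf2 were called lower as well (-0.26 and -0.19). Tm7sf2, Mvk and Pmvk were not called (-0.04, -0.09 and -0.04).

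In the early window, Fdps had the smallest p of the sterol arm at 119.9 and 118 CPM (-0.25 ± 0.03 SE, adjusted p = 6.07e-07), and Acat2, Sc4mol, Dhcr7, Nsdhl and Lss were called lower as well (-0.24, -0.21, -0.18, -0.18 and -0.17). Scd1 stood at 223 and 226 against 258 and 263 CPM (-0.21 ± 0.03 SE, adjusted p = 6.53e-06), and Scd2, Acss2, Elovl6 and Acly changed by -0.19, -0.32, -0.19 and -0.12. Acss2 was not called without control replicate 1 or early replicate 1 (adjusted p = 0.0922 and 0.076), Elovl6 without early replicate 1 (0.0929), and Lss without control replicate 1 or early replicate 2 (0.0986 and 0.0958). Dhcr7 was not called without any 1 of the 4 libraries (0.0542 to 0.0929), Nsdhl not without control replicate 1, control replicate 2 or early replicate 1 (0.093 to 0.346), and Acly not without control replicate 2, early replicate 1 or early replicate 2 (0.0824 to 0.343). Of the 6 regulators and 2 exporters, 0 were called by edgeR in this window, with 3 at an unadjusted p under 0.05, 0 by DESeq2 and 0 by limma. Over all 14473 genes tested, 2503 were at an unadjusted p under 0.05. The count of called sterol genes fell from 7 to 3 without day 4 control replicate 1 and to 4 without any of the other 3 libraries, and that of fatty acid genes from 5 to 2 without early replicate 1.

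In the full window, Cyp51 stood at 171 and 178 CPM against 155 and 149 CPM in the control (0.20 ± 0.04 SE, adjusted p = 1.16e-05), and Sqle at 111 and 114 against 96.5 and 97.4 CPM (0.21 ± 0.04 SE, adjusted p = 8.07e-05). Ebp, Sc4mol, Sc5d, Idi1 and Hsd17b7 rose by 0.24, 0.17, 0.17, 0.16 and 0.13. Scd2 had the smallest p of the fatty acid arm, at 1313 and 1318 against 1088 and 1082 CPM (0.28 ± 0.03 SE, adjusted p = 6.58e-10), and Scd1 and Fads2 rose by 0.17 and 0.12. Elovl6 fell in all 3 windows, here to 109 and 109.8 CPM (-0.29 ± 0.04 SE, adjusted p = 9.40e-08). Stard4 and Srebf1 were called higher (0.20 and 0.10) and Scap lower (-0.19), of which the calls of Stard4 and Scap were lost without full replicate 2 (adjusted p = 0.0641 and 0.0608). Sc5d, Hsd17b7 and Srebf1 were not called by DESeq2 (adjusted p = 0.067, 0.134 and 0.0689). Sc5d also lost its call without control replicate 2 or either full library (0.052 to 0.236), Hsd17b7 without either control library or full replicate 2 (0.0867 to 0.486), and Srebf1 without either control library or full replicate 1 (0.103 to 0.488). Fads2 was called neither by DESeq2 nor without control replicate 1, control replicate 2 or full replicate 1 (adjusted p = 0.0593 to 0.158). Ebp was called higher in each window (0.15, 0.15 and 0.24), but in the early and mid windows not by DESeq2 or limma, nor without any 1 of the 4 libraries. Abcg1 stood at 2.07 and 2.54 CPM in the control, 4.07 and 4.06 CPM in the mid and 5.25 and 4.71 CPM in the full window (1.11 ± 0.15 SE, adjusted p = 9.98e-08), and Abca1 was slightly lower in the mid and full windows (-0.13 and -0.12), both calls being lost without control replicate 2 (adjusted p = 0.0516 and 0.0543). In the same libraries, 7 adipocyte markers summed to 3.15 to 3.43 CPM in the control, 4.62 to 4.81 in the early, 6.26 to 6.39 in the mid and 12.1 CPM in both libraries of the full window, of which 1 passed the filter and was called higher in each window. The epithelial markers summed to 16.9 to 17.6 CPM in the control, 25.4 to 26.1 in the early, 44.7 to 46.5 in the mid and 70.9 to 73.4 CPM in the full window, with 2, 6 and 6 of 6 tested called higher. The pluripotency markers summed to 0.933 to 1.16, 2.7 to 3.26, 2.59 to 2.87 and 6.67 to 6.8 CPM, with 2, 2 and 3 of 3 tested called higher. Their part was not tested. Of the other pathway genes, 17 of 46 were called in the full window and 21 of 46 in the mid window, where Lpin1 had the smallest p (-0.45).

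Compared directly, most members were higher in the full window than in either other window. Against the early window, 14 sterol genes were called higher and 0 lower (median 0.20), and 6 fatty acid genes higher and 1, Elovl6, lower (median 0.17), the call of Elovl6 being lost without early replicate 2, full replicate 1 or full replicate 2 (adjusted p = 0.0968 to 0.395), where 16.6% of all genes were called higher and 14.4% lower. Against the mid window, 14 sterol genes and all 9 fatty acid genes were called higher (medians 0.28 and 0.29), where 11.6% of all genes were called higher and 8.51% lower. Sc4mol differed by 0.42 ± 0.04 (SE, adjusted p = 5.48e-11) and Cyp51 by 0.42 ± 0.04 (SE, adjusted p = 9.96e-12) between the full and the mid window, and Scd1 and Scd2 by 0.46 and 0.46. Insig1, Stard4, Srebf2 and Srebf1 were higher in the full window by 0.39, 0.45, 0.25 and 0.19, and Scap was lower (-0.15), a call lost without mid replicate 2 or full replicate 2 (adjusted p = 0.0766 and 0.313). Without mid replicate 2 the count of fatty acid genes called between full and mid fell from 9 to 5.

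The change with SGC0946 at day 4 (full window) was tested against that at day 2. SGC0946 was given on days 0 to 4 in the former and days 0 to 2 in the latter. The day and the length of exposure therefore cannot be told apart. At day 4 the sterol median was 0.06 in the full window and -0.21 in the mid window. The difference of the effects was called higher at day 4 in 6 sterol genes, 2 fatty acid genes and 2 regulators and lower in 1 exporter, where 5.61% of all genes were called higher and 3.57% lower. Cyp51 changed by -0.12 at day 2 and 0.20 at day 4, a difference of 0.32 ± 0.05 (SE, adjusted p = 2.58e-05). Dhcr7 changed by -0.31 and 0.03, a difference of 0.34 ± 0.07 (SE, adjusted p = 8.69e-04). The differences of Idi1, Sqle, Fdft1 and Fdps were 0.32, 0.28, 0.25 and 0.17, those of Srebf2 and Stard4 0.27 and 0.30, and those of Scd2 and Scd1 0.26 and 0.15. Abca1 was higher with SGC0946 at day 2 (0.21) and lower at day 4 (-0.12), a difference of -0.33 ± 0.05 (SE, adjusted p = 1.93e-06). The call of Scd1 was lost without any 1 of 7 of the 8 libraries, which took the fatty acid count from 2 to 1, and held without full replicate 2. The call of Fdps was lost without the same 7 libraries, each in turn (adjusted p = 0.0594 to 0.121). The calls of Stard4 and Sqle were lost without day 2 inhibitor replicate 1 (adjusted p = 0.0631 and 0.0528).

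In cells sorted by CDH1 and then kept for 2 days with SGC0946, the effects were small and mixed. In CDH1-negative cells, 3 sterol genes and 3 fatty acid genes were called higher and 0 lower (medians 0.02 and -0.01, the latter changing sign in 5 of the alternatives, with a range of -0.02 to 0.04), where 7.82% of all genes were called higher and 10.8% lower. In CDH1-positive cells, 5 sterol genes were called lower and 1 higher (median -0.05), and 1 fatty acid gene lower and 2 higher (median 0.03), where 10.5% of all genes were called lower and 8.33% higher. The genes lowered in CDH1-positive cells were Idi1, at 88.1 and 87.7 CPM against 102 and 101 CPM (-0.21 ± 0.04 SE, adjusted p = 1.14e-06), Fdft1 (-0.18), Sqle (-0.17), Sc4mol (-0.14) and Sc5d (-0.15). Sc4mol and Sc5d were not called by DESeq2 (adjusted p = 0.0676 and 0.113), and lost their calls without control replicate 2 or inhibitor replicate 2 (0.0558 to 0.141), Sc5d also without control replicate 1 (0.126). Insig1 and Srebf2 were lowered there as well (-0.23 ± 0.05 SE, adjusted p = 1.11e-04 and -0.15), as was Stard4 (-0.21), whose call was lost without control replicate 1 or inhibitor replicate 2 (adjusted p = 0.0535 and 0.0525). Ebp, Scd2 and Fads2 were called higher in both fractions. Scd2 stood at 627 and 618 against 564 and 567 CPM in CDH1-negative cells (0.14 ± 0.02 SE, adjusted p = 4.05e-06) and at 608 and 597 against 553 and 561 CPM in CDH1-positive cells (0.11 ± 0.02 SE, adjusted p = 1.83e-04). Ebp changed by 0.19 and 0.16, and Fads2 by 0.19 and 0.19. Elovl6 was called lower in CDH1-positive cells (-0.17 ± 0.04 SE, adjusted p = 2.97e-04), and in CDH1-negative cells its change was -0.10 (adjusted p = 0.0597).

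In CDH1-negative cells, Scd1 was called higher (0.13), but not without inhibitor replicate 1 (adjusted p = 0.0538). Pmvk and Dhcr7 were called higher (0.22 and 0.21), but not by DESeq2, and without control replicate 1 the sterol count fell from 3 to 1. Pmvk also lost its call without control replicate 2 or inhibitor replicate 2, and Dhcr7 without inhibitor replicate 1. Srebf2 was called lower (-0.12 ± 0.03 SE, adjusted p = 0.00185), but not without control replicate 2 or inhibitor replicate 2, and Srebf1, at an adjusted p that rounds to 0.05, was called by edgeR's fit and by no other fit besides that without control replicate 1. The difference of the effects between the fractions was called in 0 of the 34 genes by edgeR, with 9 of 34 at an unadjusted p under 0.05 (7 of them sterol genes) and 0 by DESeq2 or limma, where 0.136% of all genes were called lower and 0.0501% higher. For this difference, 931 of the 13968 genes tested were at an unadjusted p under 0.05. The median of this difference was -0.12 over the sterol arm and -0.0048 over the fatty acid arm. Between the fractions themselves, control CDH1-positive cells had higher Fdft1 (0.10), Sc4mol (0.15 ± 0.04 SE, adjusted p = 0.0035) and Abca1 (0.08), and lower Fads2 (-0.19 ± 0.05 SE, adjusted p = 6.53e-04), Fads1 (-0.12), Acaca (-0.10) and Fasn (-0.08), where 12.8% of all genes were called higher and 13.8% lower. Of these 7 calls DESeq2 made 2, Sc4mol and Fads2. Abca1 was not called without any 1 of the 4 libraries (adjusted p = 0.05 to 0.153). The sterol count fell from 2 to 0 without CDH1-negative control replicate 2 or CDH1-positive control replicate 2 and to 1 without CDH1-positive control replicate 1, and the fatty acid count from 4 to 1 and 2 without CDH1-positive control replicates 1 and 2. Macrophage markers summed to 88.1 to 90.2 CPM in CDH1-negative and 200.4 to 202 CPM in CDH1-positive control cells, with 11 of 11 called higher in the latter, as were 6 of 7 epithelial and 5 of 5 pluripotency markers tested, while 7 of 7 proliferation markers were called lower. With SGC0946 the epithelial markers summed to 83.5 to 84.3 CPM in CDH1-negative and 197 to 197 CPM in CDH1-positive cells, with 6 of 7 called higher than control in each fraction. The macrophage markers summed to less than in control, 71.9 to 74.3 CPM in CDH1-negative and 160.3 CPM in CDH1-positive cells with SGC0946. Their part was not tested. Of 44 other pathway genes tested, 8 were called with SGC0946 in CDH1-negative and 7 in CDH1-positive cells, Soat1, which esterifies cholesterol for storage, being lower in both (-0.14 and -0.25).

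Between the Cdh1 virus and the empty virus, 1 member was called. In MEFs, Insig1 stood at 96.9 and 96.3 CPM with the Cdh1 virus and 81.9 and 82 CPM with the empty virus (0.24 ± 0.06 SE, adjusted p = 0.0377), a call that limma did not make and that was lost without any 1 of the 4 libraries, where 0.612% of all genes were called higher and 0.525% lower. In the sterol and fatty acid arms 0 genes were called, with 2 and 1 at an unadjusted p under 0.05 and 0 by DESeq2 or limma. Over all 15044 genes tested, 1487 were at an unadjusted p under 0.05 in MEFs. In day 2 control cells, 0 of the 34 genes were called by edgeR, with 4 at an unadjusted p under 0.05 and 0 by DESeq2 or limma, where 0.146% of all genes were called higher and 0.751% lower. There, 1430 of all genes tested were at an unadjusted p under 0.05. Macrophage markers summed to 846 to 970 CPM in MEFs with the Cdh1 virus and 1432 to 1539 CPM with the empty virus. In day 2 control cells they summed to 123 to 125 and 289 to 303 CPM. Their part was not tested.

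In ESCs, the 2 arms differed. Against MEFs with the empty virus, 11 of 17 sterol genes were called higher and 5 lower (median 1.15), whereas 4 of 9 fatty acid genes were called higher and 5 lower (median -0.39), where 44.5% of all genes were called higher and 44.1% lower. The summed sterol arm stood at 1991 and 1984 TPM in the ESCs against 1299 and 1269.9 TPM in the MEFs, and the fatty acid arm at 973 and 954 against 1248 and 1255 TPM, which put the ratio at 2.05 and 2.08 against 1.04 and 1.01. The ESCs carried no virus and differ from these MEFs in that as well as in line, medium, feeders and cell type, which cannot be told apart. The 7 proliferation markers summed to 3618 to 3621 CPM in the ESCs and 279 to 292 CPM in these MEFs, and their part was not tested.

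The genes that were higher in ESCs included 5 of the 6 mevalonate steps. Dhcr7, which makes cholesterol from its last precursor, had the largest difference, 141 and 134 CPM against 33 and 31.7 CPM (2.09 ± 0.07 SE, adjusted p = 9.61e-19). Mvd stood at 125 and 116 against 33 and 32.4 CPM (1.89 ± 0.07 SE, adjusted p = 5.11e-18), and Pmvk, Idi1, Acat2 and Fdps were higher by 1.85, 1.73, 1.28 and 1.25 on the log2 scale. Sc4mol, Lss, Fdft1, Sqle and Cyp51 were higher by 1.54, 1.36, 1.15, 0.54 and 0.21. By limma on log2(TPM + 1), Cyp51 was called lower (-0.21, adjusted p = 0.00333) and Sqle was not called (adjusted p = 0.0558). The genes that were lower were Ebp, at 12 and 12.9 against 27.1 and 28.2 CPM (-1.15 ± 0.08 SE, adjusted p = 3.01e-12), Hsd17b7 (-1.09), Sc5d (-0.58), Mvk (-0.33) and Tm7sf2 (-0.31), the last not called by DESeq2 (adjusted p = 0.0612). Nsdhl was not called (-0.15, adjusted p = 0.0582).

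In the fatty acid arm, 4 enzymes were higher in ESCs: Fasn at 817 and 788 against 240.1 and 237 CPM (1.75 ± 0.06 SE, adjusted p = 5.75e-19), Acaca at 280.4 and 276 against 109 and 108 CPM (1.36 ± 0.06 SE, adjusted p = 3.59e-17), Elovl6 by 1.10 and Acly by 0.70. The 4 desaturases and Acss2 were lower, Fads1 at 86.5 and 86.7 against 187 and 183 CPM (-1.10 ± 0.05 SE, adjusted p = 1.72e-15), with changes of -1.09 for Acss2, -0.66 for Scd1, -0.60 for Fads2 and -0.39 for Scd2. The regulators moved in both directions. Insig1 and Srebf2 were higher (1.56 ± 0.06 SE, adjusted p = 2.79e-18 and 0.74), as was Stard4 (0.85), while Scap, at 40.8 and 38.8 against 120.0 and 113 CPM (-1.55 ± 0.06 SE, adjusted p = 3.90e-17), Insig2 (-1.47) and Srebf1 (-0.34) were lower. Abca1 was low in the ESCs, at 5.04 and 5.97 CPM against 216 and 225 CPM (-5.32 ± 0.08 SE, adjusted p = 9.07e-26), and Abcg1 stood at 12.1 and 13.1 against 17 and 17.4 CPM (-0.45). Macrophage markers summed to 37.4 to 38.9 CPM in the ESCs and 1432 to 1539 CPM in these MEFs, and their part in the level of Abca1 was not tested. Of 47 other pathway genes tested, 19 were called higher and 18 lower, with Lbr, a nuclear envelope protein with sterol reductase activity, having the smallest p of those that were higher (3.35).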

How the data were processed

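RNA sequencing was analysed in 36 mouse libraries, 18 groups of 2, in 3 experiments fitted separately: the timecourse (14 libraries), the sort (8) and the lentivirus experiment with the ESCs (14). The deposited expected counts and TPM values per gene were made by the authors with RSEM 1.2.4, with Trimmomatic and Bowtie also named and builds mm9 and hg18, per the submitters' processing notes. Per the labels' protocols, 20 ng of human 293T RNA was spiked into the paired-end libraries of the timecourse and the sort, so levels were compared only within an experiment. The deposited FPKM values were not used.

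Expected counts were rounded to whole numbers, filtered with filterByExpr (minimum count 10, minimum total 15) and scaled by TMM. The filter used all groups of an experiment, so with the lentivirus libraries a gene could be kept through the ESCs alone. All groups of an experiment shared one fit in edgeR 4.0.16 (quasi-likelihood, R 4.3.3), with Benjamini-Hochberg adjustment over all genes tested and a threshold of 0.05. The fits were tested on simulated data. Alternatives were DESeq2 1.42.0, limma 3.58.1 on log2(TPM + 1), median-ratio scaling, no filter, only the groups compared, a replicate block and leaving out each library, and scaling by total counts was added after seeing the data. All members were named. Standard errors and adjusted p go to called members with the smallest p, at most 4 per arm and 3 of the regulators and exporters together in a comparison, and to members against their arm's direction, and some members that were not called are given with their p, chosen after their values were seen. Other pathway genes were named from the 3 smallest p per direction. The members and lists were chosen with earlier results of these data known. Some genes of these pathways are not reported here.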

Additional observations from a re-analysis of the deposited data

Results flagged for a closer look

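The effect of SGC0946 over days 0 to 4 (full window, at day 4) was set against its effect at day 2 by an interaction term in edgeR's quasi-likelihood fit, and 11 of the 34 genes had a difference at an adjusted p under 0.05. DESeq2 called 11 and limma 9. The day and the length of exposure to SGC0946 cannot be told apart here. In the sterol arm the difference on the log2 scale was 0.34 for Dhcr7, 0.32 for Idi1, 0.32 for Cyp51, 0.28 for Sqle, 0.25 for Fdft1 and 0.17 for Fdps. In the fatty acid arm it was 0.26 for Scd2 and 0.15 for Scd1, and among the regulators 0.30 for Stard4 and 0.27 for Srebf2. Abca1 had the opposite sign, with a difference of -0.33. The sterol arm had a median difference of 0.17 and the fatty acid arm of 0.07, against 0.0035 over all genes tested. Groups of 2 libraries were too small to test a single library as an outlier.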

How the results depend on the processing

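Of the 364 called changes of single genes, 6 reversed under an alternative. With total counts, Srebf2 (0.0940), Scap (0.0770), Fads1 (0.0360) and Pmvk (0.0321) at day 4 against MEFs and Scap at day 4 against day 2 (0.0161) turned positive, and by limma Cyp51 in ESCs against MEFs turned negative (-0.21). The number of these calls lost was 27 by DESeq2, 39 by limma, 17 with total counts, 13 with no filter, 6 with only the groups compared, 5 with median-ratio scaling and 87 without at least 1 of the libraries. Median changes of the fatty acid arm with SGC0946 that lay near 0 changed sign, with a range of -0.03 to 0.01 at day 2, -0.03 to 0.05 in the full window and -0.02 to 0.04 in CDH1-negative cells. The median of the difference between the CDH1 fractions ran from -0.03 to 0.0041. Of the 46 counts of called sterol and fatty acid genes, several small ones moved by more than 1.5 times, and the cause was not tested. For SGC0946 at day 2, the sterol count of 6 was 2 by limma, 3 with total counts, and 2 to 4 with 1 library left out, and the fatty acid count of 2 was 1 by DESeq2, 4 with only the groups compared, and 1 with any library left out. With the empty virus the fatty acid count of 2 was 0 by limma and 0 to 2 with 1 library left out. With the Cdh1 virus the sterol count of 6 was 3 with only the groups compared and 2 to 7 with 1 library left out, and the fatty acid count of 1 was 0 with only the groups compared and 0 to 1. For the difference between the day 4 and day 2 effects, the fatty acid count of 2 was 1 with total counts, with no filter and by limma, and 1 to 2 with 1 library left out. With 1 library left out, the early window gave 3 to 4 sterol genes (from 7) and 2 to 4 fatty acid genes (from 5), and full against mid gave 5 to 8 fatty acid genes (from 9). In CDH1-negative cells the sterol count of 3 was 1 by DESeq2, 5 with total counts and 1 to 3 with 1 library left out. Between CDH1-positive and CDH1-negative controls, the sterol count of 2 was 1 by DESeq2 and 0 to 2 with 1 library left out, and the fatty acid count of 4 was 1 by DESeq2, 2 by limma and 1 to 3. For the day 2 change between the viruses, the fatty acid count of 0 was 1 with only the groups compared. The replicate block moved no count past 1.5 times: the sterol count at day 2 against MEFs was 16 with it, and 5 calls were lost, Srebf1 with SGC0946 in CDH1-negative cells (adjusted p = 0.0638), Nsdhl with SGC0946 at day 2 (0.0519) and in full against early (0.054), Hsd17b7 in the full window (0.0505) and Fasn at day 2 with the Cdh1 virus (0.0554). Same-numbered libraries did not deviate together (correlations of -0.0936 to 0.109), so the numbers were not read as pairs. With 2 libraries a group, leaving out 1 assumes that the lone library varies like the other groups. Of the 34 genes Abcg1 had the lowest counts in the timecourse MEFs, which limits its changes.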
